A study of Caenorhabditis elegans with 12 samples.

Results

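Regions of histone H4 acetylation whose centre lies in an intron were described for acetylation at lysine 5 (H4K5ac) and at lysine 8 (H4K8ac) in adult Caenorhabditis elegans. The members were all listed regions whose deposited annotation begins with the word intron, 2687 of 12829 regions in all. They made up 1334 of 6432 H4K5ac regions (20.7%) and 1353 of 6397 H4K8ac regions (21.2%). The annotation has 5 classes, and the others are promoter-TSS (around a transcription start site), exon, TTS (around a transcription end site) and Intergenic. The study immunoprecipitated chromatin of whole adults of the wild-type strain Bristol N2, fed on E. coli OP50 at 20 °C, with an antibody to one or the other mark. There were 3 immunoprecipitated (IP) and 3 input libraries for each mark, 12 in all, with no mutant and no treatment. The series title concerns histone deacetylation and lipid metabolism, but every group was wild type, so the comparisons say only where each mark lay. The libraries are sequenced DNA of all tissues together, so marker genes cannot check the tissue, and fewer cells carrying a mark cannot be told apart from less of it per cell.

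Acetylation of the tail of histone H4 neutralises lysine charges, loosens contacts between nucleosomes and is bound by bromodomain proteins. In animals it is known mainly from the starts of active genes, with lower levels along gene bodies, and introns can hold enhancers, alternative starts and whole small RNA genes. Introns of C. elegans are mostly short and its genes lie close together, so a broad region centred in an intron often also covers exons, a start site or a neighbouring gene.

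The class says where the centre of a region falls, not all that it covers. Distances are from that centre to the start site of the gene named for the region. Assuming the centre, 403 of 408 transcripts named for several H4K5ac regions gave 1 start site within 1 bp, and 367 of 373 did for H4K8ac. The level of a mark was deposited as 1 estimated read count per named gene and library, repeated on every region of that gene. The count did not follow region length (Spearman correlation 0.0453 and 0.0290 across genes) and fell with the number of genes within 2 kb of the start (-0.504 and -0.50). An IP over input fold of an intron region is therefore that of its named gene, and not of the region alone. No source used here gives the stretch of DNA counted for a gene, and counting over whole gene bodies was not tested. Total counts ran from 5460401 to 9156386 per library. Coordinates are those of the files, in WBcel235.

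Intron regions lay farther from the start of the gene named for them than regions of any other genic class. The median distance was 1506 bp for H4K5ac and 1497 bp for H4K8ac. It was 1196 and 1361 bp for exon regions, 864.5 and 910 bp for TTS regions, 292.5 and 310 bp for promoter-TSS regions, and 2169 and 2193 bp for Intergenic regions. Of the intron regions, 491 of H4K5ac (36.8%) and 478 of H4K8ac (35.3%) were centred more than 2 kb from the named start, against 15.5% and 16.8% of all other regions. Beyond 5 kb there were 8.17% and 7.69%, against 3.10% and 3.13%. Within 1 kb there were 381 (28.6%) and 428 (31.6%). The pool of other regions includes the promoter-TSS class, which by its definition had 0% beyond 2 kb. Exon regions were nearer to intron regions than this pool, with 28.4% and 30.2% beyond 2 kb and 5.59% and 5.80% beyond 5 kb. TTS regions had 13.9% and 15.1% beyond 2 kb. Intergenic regions stood above intron regions at both distances, with 54.5% and 55.9% beyond 2 kb.

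Most intron regions lay downstream of the named start, 1051 of H4K5ac (78.8%) and 1045 of H4K8ac (77.2%). The 283 and 308 upstream ones began at 1008 and 1003 bp from it, the downstream ones at 102 and 105 bp. Closer regions fall into the promoter-TSS class by definition, whose longest distance was 1000 bp, so the lower end of these distances is set by the annotation. These are descriptions of 1 list per mark, and regions are not replicates, so no test was made over them.

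**Figure D1:**
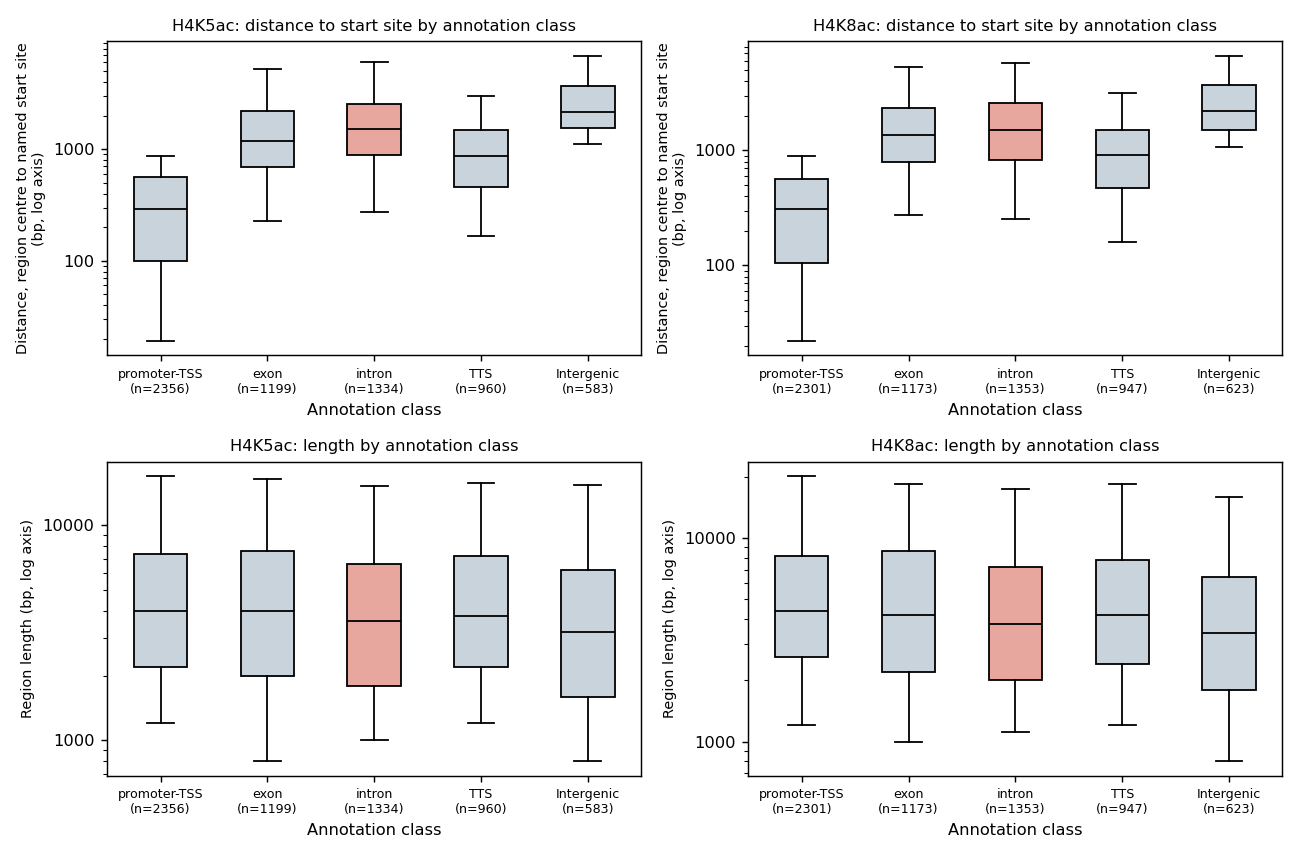
Distance from region centre to the named start site (top, bp, log axis) and region length (bottom, bp, log axis) for the 5 annotation classes of H4K5ac (left) and H4K8ac (right); boxes span the quartiles with the median as a line, and whiskers reach the 5th and 95th percentiles. Intron regions (red) have median distances of 1506 and 1497 bp, above every class but Intergenic, and median lengths of 3599 and 3799 bp, below every class but Intergenic.

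Intron regions were a little shorter than those of most other classes. The median length was 3599 bp (quartiles 1799 and 6599 bp) for H4K5ac and 3799 bp (1999 and 7199 bp) for H4K8ac, against 3999 and 4199 bp for all other regions. Lengths step by 200 bp in every region of both lists. Regions of 10 kb or more numbered 160 (12.0%) and 186 (13.7%) in introns, against 15.3% and 18.2% elsewhere. Intron regions together covered 6.78 and 7.65 Mb, which was 18.8% and 19.2% of the listed length. They met the span of exactly 1 protein-coding gene in 66.2% and 62.2% of cases, compared with 39.1% and 36.5% of other regions. They met 2 or more in 33.1% and 37.3%, compared with 50.3% and 52.3%. Exon regions lay in between, with 56.0% and 54.2% meeting exactly 1 and 43.2% and 45.1% meeting 2 or more.

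The genes that held these introns were longer than the hosts of exon regions. The host transcript could be matched to a gene for 1272 H4K5ac and 1283 H4K8ac intron regions. The median host span was 6885.5 bp and 6322.5 bp, against 4108 and 4273.5 bp for the hosts of exon regions. A region lay wholly inside its host in 584 of 1268 cases (46.1%) for H4K5ac and 537 of 1280 for H4K8ac, and such regions were short, with a median of 1999 bp for both marks. It covered the whole host in 22.2% and 26.6% of cases.

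Regions were centred in the first intron of their transcript in 261 cases (19.6%) for H4K5ac and 265 (19.6%) for H4K8ac. In the second intron there were 247 and 238, and in the last, 145 for each mark. Hosts had a median of 7 introns. First-intron regions lay at a median of 731 and 649 bp from the named start, and later ones at 1765 and 1714 bp. The median log2 fold of the named gene was -0.09 and -0.05 for first-intron regions and -0.01 and -0.03 for later ones.

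A few long hosts carried several separate intron regions. For H4K5ac 982 hosts had 1 such region, 87 had 2, and 4 had 5. Genes with 5 included gcn-1, whose product works with the GCN2 kinase in translational control, ints-3, for an Integrator subunit, and pad-1. For H4K8ac ints-3 had 6, and crh-1, for the CREB transcription factor, emb-4, for a spliceosomal helicase, and pad-1 had 5 each. The 5 H4K8ac regions of crh-1 all lay in its first and second introns, and were 799 to 5199 bp long in a gene of 36.2 kb.

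The gene named for an intron region was not always the one whose intron it was. It was the host in 989 H4K5ac cases (77.8%) and 974 H4K8ac cases (75.9%), and another gene in 283 (22.2%) and 309 (24.1%). Of those other genes, 141 (49.8%) and 129 (41.7%) were non-coding, among them small RNA genes that sit inside the host. In all, 167 intron regions of H4K5ac and 152 of H4K8ac (11.2%) were named for a non-coding gene, including 14 and 16 for piRNA, 9 and 8 for miRNA and 8 and 9 for snoRNA genes. Upstream regions were named for a gene other than the host in 174 and 197 cases. A further 79 and 72 lay upstream of the named start and yet in an intron of the same gene, which places them in a transcript with an earlier start.

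Chromosomes I and III held more of the intron regions than of the other regions, and II, V and X held fewer. Intron regions were 308 of 1244 H4K5ac regions on chromosome I (24.8%) and 317 of 1151 on III (27.5%). On X they were 164 of 1021 (16.1%). For H4K8ac the same shares were 26.5%, 27.1% and 14.9%. Chromosomes II and V had 16.9% and 16.6% for H4K5ac, close to X, and 17.8% and 18.0% for H4K8ac. Chromosome IV had 20.7% and 20.9%. Seen from the intron list, 23.1% of H4K5ac and 23.4% of H4K8ac intron regions were on I, against 18.4% and 17.4% of the other regions. On III 23.8% of H4K5ac intron regions stood against 16.4%, and on X the shares were 12.3% and 10.1% against 16.8% and 15.4% for the 2 marks.

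Long distances were also uneven between chromosomes. On X only 3 of 164 H4K5ac and 1 of 136 H4K8ac intron regions lay more than 5 kb from the named start. On III there were 31 of 317 (9.78%) and 36 of 300 (12.0%). The named genes of intron regions had a median log2 fold of 0.08 and 0.06 on III and of -0.11 and -0.17 on X. For other regions these were 0.04 and 0.04 on III, and -0.12 and -0.15 on X.

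**Figure D2:**
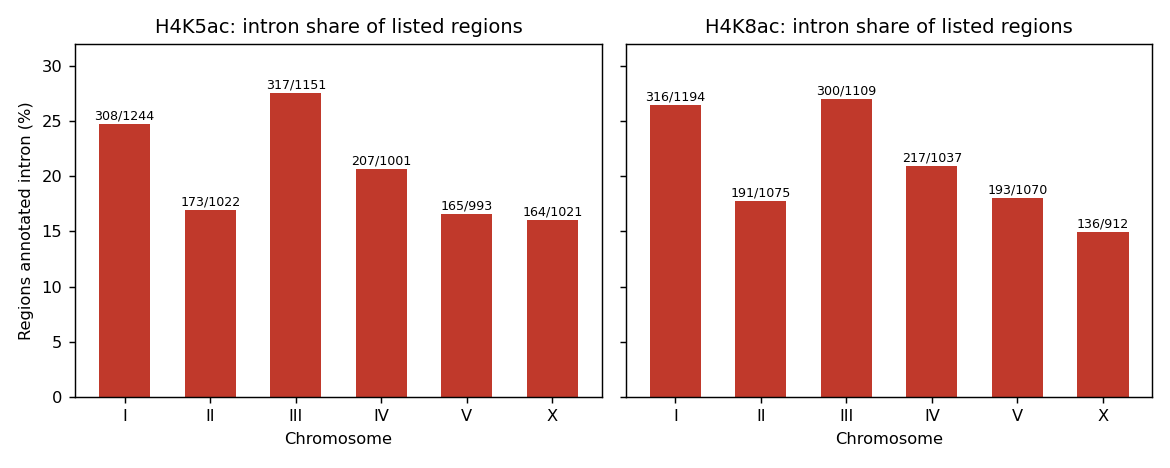
Share of listed regions annotated as intron on each chromosome (%, bars from 0) for H4K5ac (left) and H4K8ac (right), with the number of intron regions over all listed regions above each bar. Chromosomes I and III stand highest, at 24.8% and 27.5% for H4K5ac and 26.5% and 27.1% for H4K8ac, and X lowest, at 16.1% and 14.9%. For H4K5ac, V (16.6%) and II (16.9%) are close to X.

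Most intron regions of one mark overlapped a region of the other. At a minimum of 1 bp, 1125 of 1334 H4K5ac intron regions (84.3%) overlapped an H4K8ac region of any class, against 89.6% of promoter-TSS, 89.5% of exon, 90.0% of TTS and 80.6% of Intergenic regions. In the other direction 1122 of 1353 (82.9%) did, against 85.3%, 82.8%, 81.7% and 77.0%. The region of the other mark with the longest overlap was itself an intron region in 705 cases (62.7%) for H4K5ac and 701 (62.5%) for H4K8ac. It was promoter-TSS in 174 and 180 and exon in 161 and 160, so overlapping regions of the marks often had different classes. The same start and end were listed for both marks in 268 intron regions (20.1% and 19.8%).

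Over all their named genes, intron regions showed an IP over input close to that of the whole list. Each list is ordered by this very ratio and holds chosen genes. With the scaling used, a fold near 0 is that of a typical gene in the list, and a lower one may still carry the mark. The 1334 H4K5ac regions named 1188 of 5632 genes. The median log2 fold of these genes was -0.03, against -0.02 over all genes. By edgeR's quasi-likelihood test at an adjusted p of 0.05, 348 (29.3%) were higher in the IP, 376 (31.6%) lower, and 464 did not pass. Over the whole list 61.6% of genes were called, 32.2% higher and 29.5% lower, so the intron share of 60.9% was near that background. The 376 lower calls became 235 without input replicate 2 and 243 without input replicate 3.

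For H4K8ac, 1353 regions named 1215 of 5671 genes with a median log2 fold of -0.03, against -0.04 over all genes. Of these, 379 (31.2%) were higher, 396 (32.6%) lower and 440 did not pass. The whole list had 64.8% called, 31.2% higher and 33.6% lower. Among other classes, the medians were 0.005 and -0.02 for promoter-TSS, -0.04 and -0.04 for exon, -0.05 and -0.06 for TTS, and -0.08 and -0.11 for Intergenic genes. Per IP library, the intron medians against the mean input were -0.03, -0.04 and -0.03 for H4K5ac (SD 0.00632) and -0.04, -0.02 and -0.03 for H4K8ac (SD 0.00816).

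Large folds were few. A log2 fold above 1 was reached by 23 intron genes of H4K5ac (1.94%) and 4 of H4K8ac (0.329%), and the lowest values were -0.39 and -0.34. For all genes the shares above 1 were 2.66% and 0.353%, and the lowest values were also -0.39 and -0.34. Scaling by total count in place of TMM moved the median of all genes to -0.15 for H4K5ac and -0.11 for H4K8ac (-0.02 and -0.04 with TMM). The intron calls then split into 254 higher and 581 lower for H4K5ac (30.4% higher, 48.1% with TMM) and 284 and 524 for H4K8ac (35.1% higher, 48.9% with TMM). The calls over all genes shifted the same way, to 1349 higher and 2627 lower for H4K5ac and 1454 and 2497 for H4K8ac. Relative to all genes the intron median stayed at -0.02 and 0.003.

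**Figure D3:**
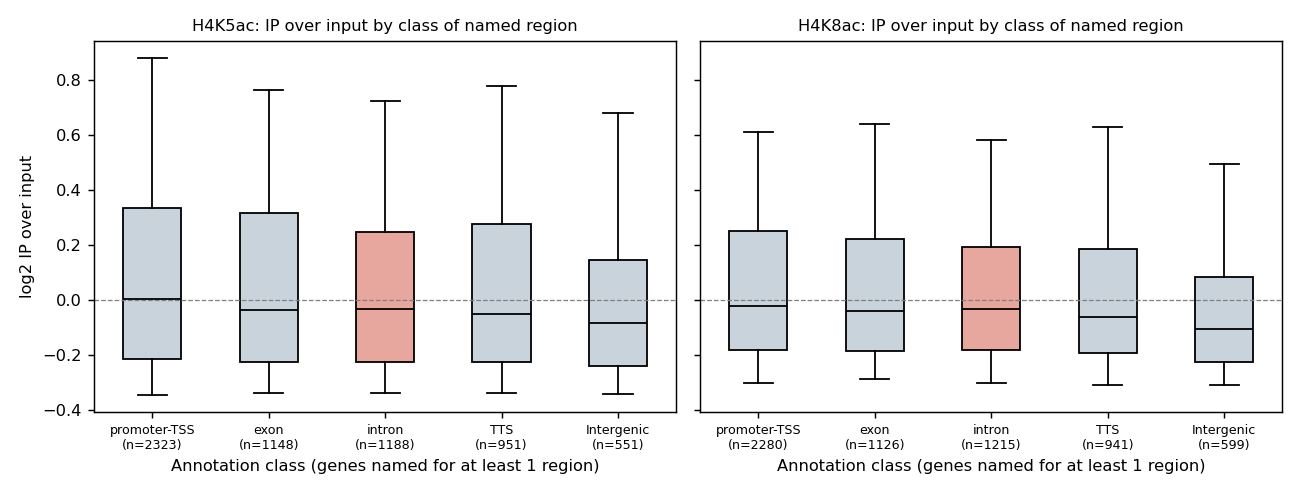
log2 IP over input of genes named for at least 1 region of each annotation class, from the edgeR fits of H4K5ac (left) and H4K8ac (right); boxes span the quartiles with the median as a line, whiskers reach the 5th and 95th percentiles, and a gene named for regions of several classes counts in each. The intron boxes (red) are centred at -0.03 for both marks and overlap those of all other classes.

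The strongest H4K5ac folds among intron genes were at regions that, in 9 of the 10, also held the start of the named gene. That start often lay within 2 kb of another protein-coding gene, as was also the case for most of the 10 lowest H4K5ac intron genes. Each fold is given with its standard error from the fit of 3 IP and 3 input libraries, and levels are counts scaled to a common library size with TMM factors (CPM). At F31D4.2, a protein-coding gene on chromosome V beside fkb-6, an immunophilin gene, the IP libraries read 710, 610 and 509 CPM and the inputs 232, 216 and 210 CPM. Every IP value was above every input value, a log2 fold of 1.47 ± 0.14 (edgeR adjusted p = 1.21e-05). Its region, chrV:20835601-20853999, is 18399 bp long and centred in intron 4 of 7.

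At set-16, which encodes a histone H3 lysine 4 methyltransferase of the MLL family, the IP libraries read 627, 503 and 453 CPM and the inputs 224, 206 and 203 CPM. The groups again did not overlap, and the log2 fold was 1.32 ± 0.13 (edgeR adjusted p = 1.65e-05). The region chrIII:13633801-13661399 spans 27599 bp and is centred in intron 7 of 14.

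The single highest value belonged to F16A11.9, a non-coding RNA gene within ppfr-1, a phosphatase 4 regulatory subunit gene. It read 605, 500 and 432 CPM in the IPs against 188, 166 and 163 CPM in the inputs, a log2 fold of 1.57 ± 0.13 (edgeR adjusted p = 8.05e-06). At rpt-6, a proteasome ATPase gene, the log2 fold was 1.31 ± 0.17, and the histone H3.3 gene his-72 lies within 2 kb of its start. The others of the 10 highest were ubc-20, for a ubiquitin-conjugating enzyme (1.35 ± 0.14), D1007.5 beside the ribosomal protein genes rpl-24 and rps-10 (1.29 ± 0.10), Y111B2A.12 beside epc-1 (1.28 ± 0.18), pdi-3, for a protein disulfide isomerase, Y105E8A.14 beside rps-20 (1.21 ± 0.14) and itsn-1. Whether the count of such a gene includes reads of its neighbour was not tested.

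The gene itsn-1, for the endocytic adaptor intersectin, differed from the rest. Its intron region, chrIV:17123201-17124599, is only 1399 bp long, is centred 2176 bp from the start and does not hold it. The start lies in another listed region, of the TTS class. IP libraries read 436, 316 and 283 CPM and inputs 169, 144 and 139 CPM, a log2 fold of 1.20 ± 0.14 (edgeR adjusted p = 4.25e-05). This was the only region named for itsn-1, so the region at its start is listed under another gene.

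F31D4.2 and set-16 were also among the 10 highest for H4K8ac. F31D4.2 was highest, at 542, 423 and 507 CPM in the IPs and 227, 223 and 233 CPM in the inputs (log2 fold 1.11 ± 0.11, edgeR adjusted p = 4.06e-06). At set-16 the IPs read 455, 376 and 416 CPM and the inputs 206, 205 and 207 CPM, a log2 fold of 1.02 ± 0.09. IP and input did not overlap at either gene. The intron region of F31D4.2 was 22599 bp long for H4K8ac and was centred in intron 6, where that of H4K5ac was centred in intron 4, since its borders reached farther on one side.

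Others of the 10 highest for H4K8ac were F53C11.5 (1.09 ± 0.12), F54A3.6 beside the chaperonin gene cct-3 (1.03 ± 0.10), atx-2, for the RNA-binding protein ataxin-2 (0.98 ± 0.10), C37H5.5 beside the mitochondrial chaperone gene hsp-6 (0.94 ± 0.09), hpo-29 (0.92 ± 0.09), gpi-1, for glucose-6-phosphate isomerase (0.91 ± 0.10), and mnk-1, for a MAP kinase-interacting kinase (0.91 ± 0.08). Another of the 10, mir-5595, is a microRNA gene within nurf-1, a nucleosome remodelling factor gene. Its IP libraries read 426, 360 and 411 CPM and its inputs 211, 196 and 213 CPM (0.95 ± 0.09, edgeR adjusted p = 2.81e-06). As at itsn-1, the region of F53C11.5 was short, 1199 bp at chrV:13792001-13793199, and its start lay in another listed region, of the exon class.

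The lowest intron genes were far closer to the typical gene, between -0.39 and -0.37 for H4K5ac and between -0.34 and -0.33 for H4K8ac. Each of the other classes ended at much the same value, -0.38 for H4K5ac and -0.34 for H4K8ac. This low end is thus shared by the whole of each list and is not particular to introns. The lowest for H4K5ac was Y16B4A.2 on the X chromosome, whose start lies within 2 kb of the transcription factor gene unc-3, with 93.0, 99.8 and 92.3 CPM in the IPs and 119, 128 and 125 CPM in the inputs. All IP values were below all input values, a log2 fold of -0.39 ± 0.07 (edgeR adjusted p = 0.000606). At pmt-2, for a methyltransferase of phosphatidylcholine synthesis, the IPs read 164, 162 and 156 CPM and the inputs 195, 213 and 216 CPM, a log2 fold of -0.37 ± 0.07 (edgeR adjusted p = 0.000742). Its region is centred 5032 bp from the start, in intron 4 of 5.

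Of the other 8 lowest for H4K5ac, 21ur-10699 is a piRNA gene within mlt-3, linc-157, C54G7.11 and H14E04.6 are non-coding, and ksr-1 encodes a scaffold of Ras signalling. For H4K8ac the lowest was xpc-1, a DNA repair gene of the xeroderma pigmentosum C family, at 96.5, 95.2 and 90.4 CPM in the IPs and 115, 116 and 127 CPM in the inputs. The groups did not overlap, with a log2 fold of -0.34 ± 0.06 (edgeR adjusted p = 0.000315). The 10 also held mir-5592.2, the receptor gene nhr-92, the metalloprotease gene nas-28, and non-coding genes in daf-12 (F11A1.14) and in the LIM homeobox gene lim-7 (C04F1.4). None of the 10 highest or 10 lowest genes of either mark lost its call under any alternative that gave it a value.

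**Figure D4:**
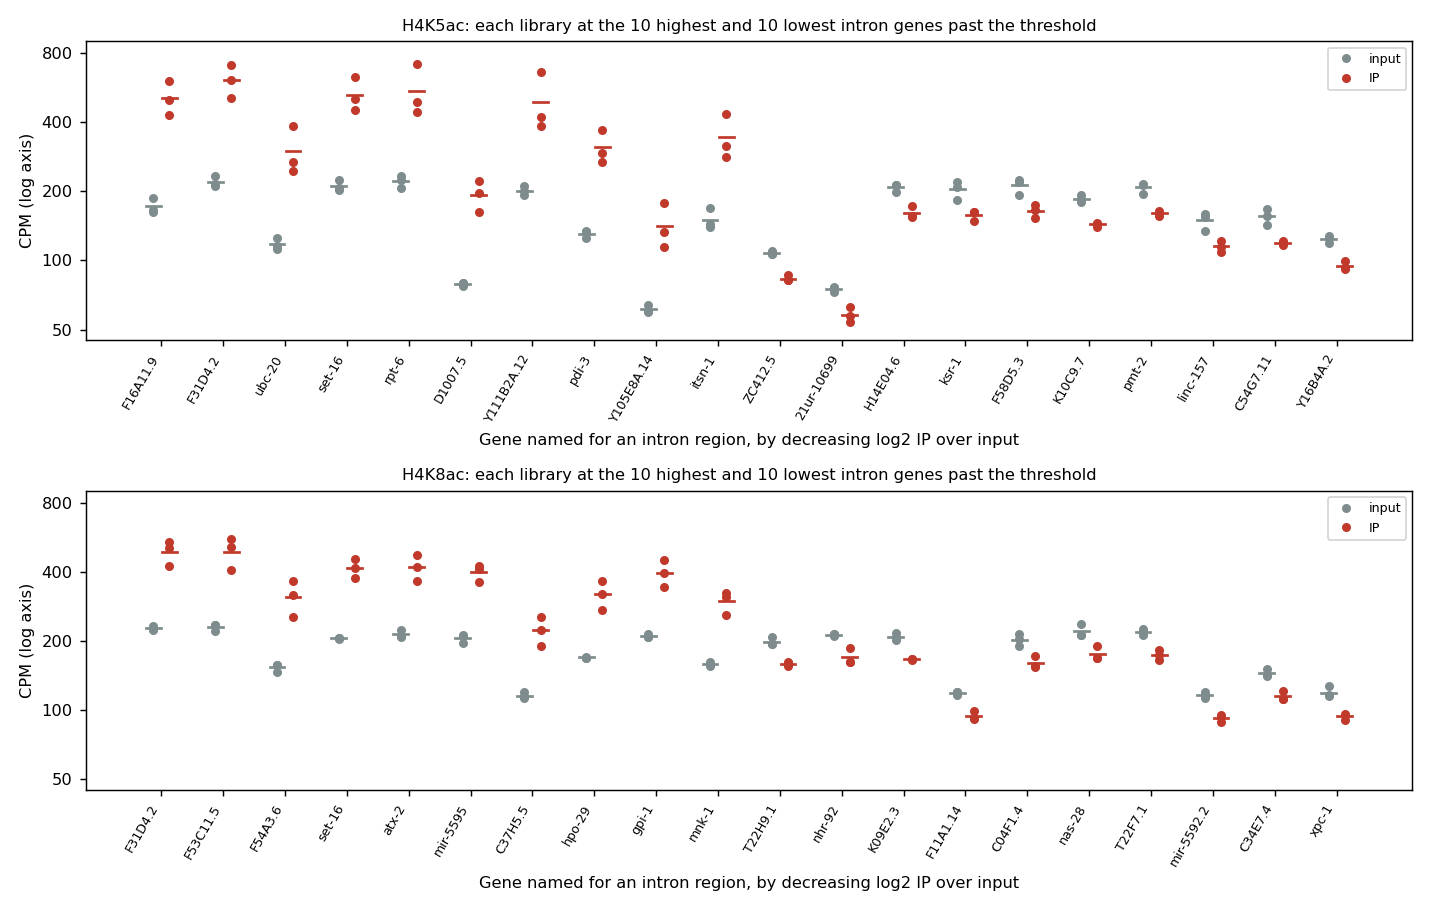
CPM (log axis) in each of 3 input (grey) and 3 IP (red) libraries at the 10 highest and 10 lowest called intron genes of H4K5ac (top) and H4K8ac (bottom), with group means as lines. IP points stand above input points at the left, up to 710 CPM at F31D4.2 for H4K5ac, and below them at the right by a smaller distance.

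The longest intron regions were not all at genes with high folds. For H4K5ac the longest was 55599 bp, on chromosome I, centred in intron 4 of 6 of unc-101, for a clathrin adaptor subunit, with a log2 fold of 0.43 ± 0.09. Next came mnk-1 (30599 bp, 1.04 ± 0.08), dhhc-7, for a palmitoyltransferase (29999 bp, 0.88 ± 0.09), set-16, and nex-2, for an annexin (27599 bp, 0.65 ± 0.07). All of these were called higher. For H4K8ac the longest, chrII:14653601-14693399 with 39799 bp, was centred in intron 11 of 33 of unc-52, the perlecan gene, and was named for hhat-1, with a log2 fold of -0.26 ± 0.06.

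Of the next longest H4K8ac regions, that of mbk-2, for a DYRK-family kinase (35999 bp), had a log2 fold of -0.02 ± 0.06 and did not pass (edgeR adjusted p = 0.743). That of etc-1, for a ubiquitin ligase (35399 bp), was lower at -0.19 ± 0.05 (0.00565), but not without IP replicate 3 (0.0555) or in the fit of 12 libraries (0.0573). The region of madf-10 in pdpr-1 (32999 bp) was at 0.62 ± 0.07. The region of R31.6 in the spectrin gene sma-1 (31799 bp) was at 0.17 ± 0.06 (0.0266), and lost the call without IP replicate 1 or 3 or input replicate 1 or 3 (edgeR adjusted p 0.0588 to 0.124), with total-count scaling (0.144) and in the fit of 12 libraries (0.0789). Over intron regions, length and the named gene's fold had a Spearman correlation of 0.335 for H4K5ac and 0.306 for H4K8ac, against 0.579 and 0.539 over other regions. Regions that share a gene share its fold, and the borders were drawn from the same reads, so these values describe the lists only.

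The regions farthest from a start were all in long genes and none of them held the named start. For both marks the farthest were in tftc-1, for a subunit of the RNA polymerase III factor TFIIIC, at 16429 bp for H4K5ac and 17029 bp for H4K8ac. Next came sql-1, for a golgin (15137 and 15537 bp), and tra-1, for the transcription factor of sex determination (14263 bp for both). The tra-1 region, chrIII:11180401-11181199, was 799 bp long and had the same borders for both marks, in intron 9 of 17. At tra-1 the IPs read 277, 262 and 250 CPM for H4K5ac against inputs of 222, 202 and 194 CPM, and the groups did not overlap (log2 fold 0.35 ± 0.08, edgeR adjusted p = 0.00287). For H4K8ac it was 0.36 ± 0.08 (0.00133). In each of these the named start lay in another listed region.

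Genes with an intron region more than 5 kb from the start were called higher more often than lower for H4K5ac, 42 against 17 of 100 with a median log2 fold of 0.13. For H4K8ac they were 36 against 28 of 91, with a median of 0.04. Genes with an intron region within 2 kb were higher in 227 and lower in 274 of 812 cases for H4K5ac, and in 242 and 276 of 838 for H4K8ac. Over all genes 32.2% were higher and 29.5% lower for H4K5ac, and 31.2% and 33.6% for H4K8ac. No test compares these groups, which share genes.

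Intron regions could be sorted by where the start of the named gene lay. It was inside the intron region itself in 789 H4K5ac cases (59.1%) and 853 H4K8ac cases (63.0%), compared with 81.7% and 81.3% of regions of the other classes. It was in another listed region of the same mark in 290 (21.7%) and 271 (20.0%), compared with 9.10% and 8.39%. That other region was of the promoter-TSS class in 144 (49.7%) and 133 (49.1%) of these. In 255 (19.1%) and 229 (16.9%) the start lay in no listed region, compared with 9.18% and 10.3%. Exon regions alone were nearer to intron regions than this pool of classes. The start lay inside 70.06% and 69.05% of them, and in another listed region for 14.76% and 14.15%. It lay in no listed region for 15.18% and 16.79%, for H4K8ac about the same share as in introns. Region numbers are missing from both lists, so a start outside the listed regions is not shown to lack the mark.

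The intron regions with no listed region at the named start were at genes of low fold, and were shorter than those that held the start. Their median length was 1799 bp for H4K5ac and 1999 bp for H4K8ac, against 5399 and 5799 bp where the region held the start. They lay wholly inside the host in 86.8% and 81.2% of cases, at a median of 1914 and 1929 bp from the named start. Regions whose start lay in another listed region were as short (median 1799 bp for both marks) and lay inside the host in 93.2% and 93.7% of cases. A region of the other mark overlapped 188 (73.7%) and 155 (67.7%) of the intron regions with no listed region at the start. It overlapped 79.3% and 80.1% where another listed region held the start, and 89.6% and 87.9% of those that held it themselves. The 226 H4K5ac genes with no listed region at the start had 29 higher and 126 lower, with a median log2 fold of -0.22. The 202 such H4K8ac genes had 18 higher and 116 lower, with a median of -0.17. Over all genes 32.2% were higher and 29.5% lower for H4K5ac, and 31.2% and 33.6% for H4K8ac. The low fold was shared with the other classes: over regions with no listed region at the start, the median was -0.21 in introns and -0.24 elsewhere for H4K5ac, and -0.17 and -0.20 for H4K8ac.

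Where the region held the start, 254 of 766 H4K5ac genes were higher and 209 lower, with a median of 0.03, and for H4K8ac 284 and 241 of 832, with a median of -0.01. Where another listed region held it, these were 90 and 58 of 261 (0.07), and 102 and 57 of 239 (0.06). Under total-count scaling, genes whose region held the start had 185 higher and 342 lower for H4K5ac, and 216 and 324 for H4K8ac. Where another listed region held it, these were 68 and 95, and 77 and 76. All genes under that scaling had 1349 higher and 2627 lower of 5632 for H4K5ac, and 1454 and 2497 of 5671 for H4K8ac. The median stayed lowest where no listed region held the start, at -0.35 and -0.24. The lists come from the same libraries as the counts, so these counts describe the lists. One gene of the group with a high value was bet-1, which encodes a double bromodomain protein that binds acetylated histone H4. Its H4K5ac intron region is 1799 bp long, is centred 3898 bp from the start in intron 6 of 13, and its start lay in no listed H4K5ac region. For H4K8ac the start of bet-1 lay in another listed region, of the Intergenic class.

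**Figure D5:**
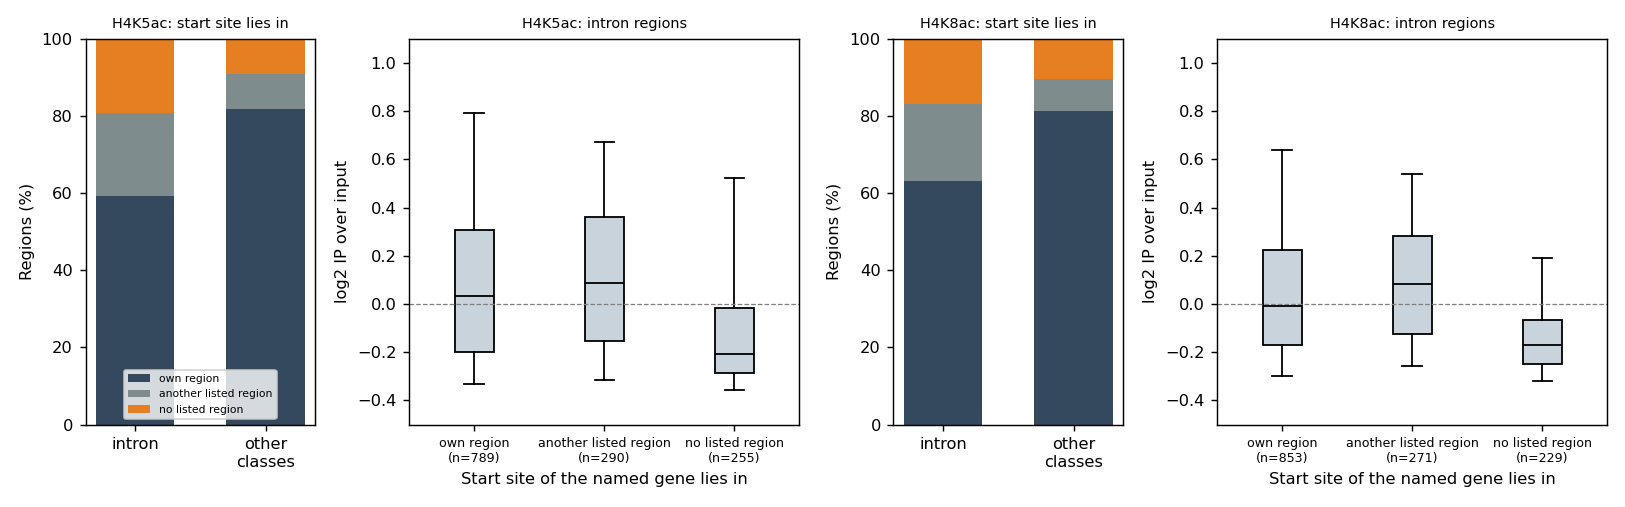
Bars show the share of regions (%) whose named start site lies in the region itself, in another listed region or in no listed region, for intron and all other classes; boxes show log2 IP over input of intron regions in these 3 groups (quartiles, median, 5th to 95th percentile). The share in no listed region is 19.1% for H4K5ac and 16.9% for H4K8ac introns against 9.18% and 10.3% elsewhere, and its boxes sit lowest. Exon regions, pooled here with the other classes, have 15.18% and 16.79%.

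Genes of chromatin regulation with an intron region were few and mostly higher, as were the listed genes of that group whatever their class. Over the whole group 9 of 14 were higher and 0 lower for H4K5ac (median log2 fold 0.52), and 12 of 16 higher and 2 lower for H4K8ac (0.38), where all listed genes had 32.2% and 31.2% higher. Of 14 such genes listed for H4K5ac and 16 for H4K8ac, the same 3 had an intron region for each mark: bet-1, mys-2, for a MYST-family acetyltransferase, and swsn-1, for a SWI/SNF subunit. At bet-1 the H4K5ac IPs read 404, 330 and 319 CPM and the inputs 225, 218 and 219 CPM, with no overlap (log2 fold 0.67 ± 0.10, edgeR adjusted p = 0.000251). For H4K8ac bet-1 was at 0.43 ± 0.07. swsn-1 was higher for H4K5ac (0.54 ± 0.10) and for H4K8ac (0.32 ± 0.08). mys-2 had a log2 fold of 0.11 ± 0.06 for H4K5ac, which did not pass (0.120), and was higher for H4K8ac at 0.15 ± 0.06 (0.0418), a call lost without IP replicate 1 or 3 or input replicate 1 or 2 (0.0537 to 0.194), with total-count scaling (0.229) and in the fit of 12 libraries (0.0677).

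Of 24 listed lipid metabolism genes 4 had an H4K5ac intron region, and 1 was higher and 2 lower, with a median log2 fold of -0.18. All 24 together had 13 higher and 8 lower and a median of 0.20, so the median of the 4 was on the other side of 0. Over all genes of the list 32.2% were higher and 29.5% lower. nhr-49, for a receptor that regulates fatty acid desaturation and oxidation, read 275, 322 and 316 CPM in the IPs and 213, 220 and 228 CPM in the inputs (0.46 ± 0.09, edgeR adjusted p = 0.00104). IP and input did not overlap. pmt-2 and daf-2 were lower. daf-2, the insulin receptor gene, had H4K5ac regions in its first and second introns and a log2 fold of -0.20 ± 0.07 (0.0258), a call lost without IP replicate 3 (0.103) or input replicate 2 (0.0780) or 3 (0.103).

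At pod-2, for acetyl-CoA carboxylase, the H4K5ac IPs read 198, 152 and 150 CPM and the inputs 163, 190 and 206 CPM. The groups overlapped and the log2 fold of -0.16 ± 0.11 did not pass (0.236). It did without IP replicate 1, at -0.31 (0.00125), and with total-count scaling, at -0.30 (0.0219). For H4K8ac, 5 of 19 listed lipid genes were named for an intron region, 2 higher and 2 lower. All 19 had 10 higher and 5 lower (median 0.18), against 31.2% and 33.6% of all genes. plin-1, the perilipin gene, was higher at 0.59 ± 0.10, with IPs of 410, 318 and 368 CPM above inputs of 240, 241 and 247 CPM. sbp-1, for the SREBP transcription factor, was lower at -0.26 ± 0.06, and daf-2 lower at -0.23 ± 0.06. nhr-49 was higher at 0.25 ± 0.09 (0.0188), a call lost without IP replicate 3 (0.0727) or any 1 of the inputs (0.0539 to 0.0891). Its H4K8ac intron region lay in an intron of K10C3.5, upstream of the nhr-49 start (-2718 bp). That start lay in another listed region, of the promoter-TSS class.

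An H4K5ac intron region was named for 8 of 15 listed genes of neurons and axon guidance, of which 1 was higher and 4 lower (median log2 fold -0.20). All 15 had 3 higher and 6 lower (median -0.12), where all genes had 32.2% higher and 29.5% lower. unc-40, for the netrin receptor, was higher at 0.52 ± 0.09, with IPs of 327, 333 and 334 CPM over inputs of 214, 240 and 237 CPM. unc-64, for syntaxin, was lower at -0.36 ± 0.09, as were mec-12, for an alpha-tubulin (-0.33 ± 0.07), and nlg-1, for neuroligin (-0.30 ± 0.07). For H4K8ac only unc-40 (0.26 ± 0.07) and unc-104, the kinesin gene, of 9 listed had an intron region, and unc-104 did not pass (-0.07 ± 0.06) except with total-count scaling (-0.14, edgeR adjusted p = 0.0424). The 9 together had 3 higher and 2 lower, against 31.2% and 33.6% of all genes.

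Of the muscle genes, 4 of 18 were named for an H4K5ac and 6 of 14 for an H4K8ac intron region, with 2 higher and 1 lower for each mark. Among them, mlc-3 was named for a region in an intron of rpc-2. Whatever their class, the muscle genes had 5 higher and 6 lower for H4K5ac and 3 and 5 for H4K8ac. The shares of all genes were 32.2% higher and 29.5% lower for H4K5ac, and 31.2% and 33.6% for H4K8ac. The beta-integrin gene pat-3 was under a region of 22999 bp with the same borders for both marks, and was higher for H4K5ac (0.37 ± 0.08). Its H4K8ac call (0.22 ± 0.07, edgeR adjusted p = 0.0195) was lost without IP replicate 3 (0.0659) or any 1 of the inputs (0.0522 to 0.107) and with total-count scaling (0.0568). The obscurin gene unc-89 was lower for H4K8ac (-0.30 ± 0.06). The germline list had mex-3 for H4K5ac (0.06 ± 0.08, not passing, and -0.08 with total-count scaling) and mes-4, for a histone H3 lysine 36 methyltransferase, for H4K8ac (0.54 ± 0.07, higher). The intestinal list had act-5, for an actin, which passed for neither mark (-0.05 ± 0.07 and 0.04 ± 0.05). With total-count scaling act-5 was lower for H4K5ac (-0.19, edgeR adjusted p = 0.0364) and at -0.03 for H4K8ac.

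In several gene families, lower calls outnumbered higher ones among intron genes, as they did over all listed members of these families. For H4K8ac lower calls also outnumbered higher ones over all genes. Nuclear hormone receptor genes had 1 higher and 10 lower of 19 for H4K5ac, and 2 and 8 of 16 for H4K8ac. C-type lectin genes had 0 and 5 of 7, and 2 and 6 of 12. F-box and BATH genes had 2 and 5 of 11, and 2 and 6 of 15. Chemoreceptor genes had 0 and 1 of 3, and 0 and 5 of 6. Collagen genes had 1 and 4 of 7, and 2 and 3 of 8, and homeobox genes 1 and 2 of 3, and 0 and 1 of 6. Some of these genes were named for a region in an intron of another gene, as ceh-10 in polq-1 and, for H4K8ac, clec-87 in iars-2. The 1 higher homeobox gene is listed as ceh-44, which the RefSeq table pairs with cone-1, so that its place in the family is unsure. Its H4K5ac call was lost with total-count scaling (edgeR adjusted p = 0.417). It was also lost without IP replicate 1 (0.121) or 2 (0.107) or any 1 of the inputs (0.0825 to 0.106). Whatever the class of their regions, nuclear hormone receptor genes had 8 higher and 25 lower of 64 for H4K5ac and 6 and 40 of 69 for H4K8ac. C-type lectin genes had 2 and 21 of 31, and 4 and 22 of 52. F-box and BATH genes had 9 and 24 of 58, and 10 and 29 of 65, and chemoreceptor genes 2 and 17 of 28, and 2 and 28 of 41. Collagen genes had 9 and 22 of 62, and 11 and 25 of 64, and homeobox genes 2 and 4 of 9, and 1 and 4 of 11. Over all genes 32.2% were higher and 29.5% lower for H4K5ac, and 31.2% and 33.6% for H4K8ac. Lower calls of intron genes were near or below these shares for H4K5ac chemoreceptor, H4K8ac collagen and H4K8ac homeobox genes, each from few genes. The medians over intron genes of these lists ran from -0.29 to -0.16 for H4K5ac except for the chemoreceptors (-0.13), and from -0.26 to -0.04 for H4K8ac, against -0.02 and -0.04 over all genes.

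Among small RNA genes named for intron regions, microRNA genes were more often higher than lower and piRNA genes more often lower, as in the lists as a whole. Over regions of any class 18 of 32 microRNA genes were higher and 6 lower for H4K5ac, and 19 and 10 of 38 for H4K8ac. For piRNA genes these were 19 and 48 for H4K5ac, and 18 and 61 for H4K8ac. Of 7 microRNA genes named for H4K5ac intron regions 5 were higher and 1 lower (median log2 fold 0.34), and of 7 for H4K8ac likewise 5 and 1 (median 0.37). Under total-count scaling these became 3 and 1, and 4 and 2. All genes then had 1349 higher and 2627 lower of 5632 for H4K5ac, and 1454 and 2497 of 5671 for H4K8ac. The reads are of DNA, and the stretch counted for such a small gene is not known here. mir-51, in an intron of alh-3, read 178, 170 and 149 CPM in the H4K5ac IPs and 86.5, 87.1 and 84.9 CPM in the inputs, with no overlap (0.94 ± 0.08, edgeR adjusted p = 8.05e-06). Its region, chrIV:11017801-11031799, spans 13999 bp and holds the start.

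The gene mir-66 was named for 3 separate H4K5ac regions in introns 13, 14 and 18 of gcn-1, the last of them 12192 bp from it. Its IPs read 96.7, 91.6 and 77.5 CPM and its inputs 58.1, 55.8 and 53.2 CPM (0.67 ± 0.09), and for H4K8ac the log2 fold was 0.58 ± 0.08. mir-2, in ppfr-1, had a region of 12799 bp with the same borders for both marks, at 0.59 ± 0.08 for H4K5ac and 0.37 ± 0.06 for H4K8ac. The piRNA genes had 1 higher and 10 lower of 13 for H4K5ac (median -0.24), and 2 and 9 of 15 for H4K8ac (median -0.17). The long intergenic RNA genes had 1 and 2 of 4, and 1 and 0 of 1, with linc-105 the higher one for both marks (0.78 ± 0.09 and 0.54 ± 0.10). Whatever their class, long intergenic RNA genes had 5 higher and 7 lower of 20 for H4K5ac, and 3 and 12 of 23 for H4K8ac. Among all genes 32.2% were higher and 29.5% lower for H4K5ac, and 31.2% and 33.6% for H4K8ac.

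The folds of the 2 marks could be compared directly at the 604 genes named for an intron region in both tables, which were 50.8% of the H4K5ac and 49.7% of the H4K8ac intron genes. In a fit of all 12 libraries over the 3750 genes in both tables, edgeR called 0 of the 604 at an adjusted p of 0.05, and 0.0% of all 3750. At an unadjusted p under 0.05 there were 100 of the 604 and 549 of the 3750. The difference, H4K5ac minus H4K8ac, ran from -0.49 to 0.58 on the log2 scale with a median of 0.03. DESeq2 called 7 of the 604 (adjusted p 0.0099 to 0.0295). It put glr-6 (a glutamate receptor gene), twf-2, klc-2 (a kinesin light chain gene) and paqr-2 (a membrane fluidity regulator gene) higher for H4K5ac, with differences of 0.46, 0.45, 0.35 and 0.40, and F54A3.7, lin-42 (the period homologue) and W09D6.9 lower, with -0.30, -0.49 and -0.31. edgeR gave these adjusted p-values of 0.158 to 0.207. Without H4K5ac IP replicate 3, edgeR called 30 of the 604, 24 higher and 6 lower for H4K5ac. A p above the threshold does not show that the marks were alike at these genes.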

How the data were processed

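Whole adult worms gave 12 chromatin immunoprecipitation sequencing libraries in 4 groups of 3. For each mark the authors deposited 1 region list with estimated counts per gene and library, not normalized, per the file headers. Per the submitters' processing notes, the tools were MACS2 2.1.0, Bowtie 1.1.2, Trimmomatic 0.33 and bcl2fastq 2.17. The same notes list WBcel235 beside hg38 as builds, with no roles. How regions were called (per sample or pooled) and which tool counted are not given in the sources used here. Both lists are ordered by IP over input (Spearman correlation of list position with the ratio -1.0), so they hold chosen genes.

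Estimated counts were rounded, 1 line per gene. Each table was fitted with edgeR 4.0.16 (R 4.3.3), TMM scaling, no filter, the quasi-likelihood test and Benjamini-Hochberg adjustment over all its genes; standard errors are from that fit. The difference between marks used all 12 libraries. DESeq2 1.42.0, total-count scaling, a low-count filter, a replicate block and leaving out each library were alternatives. The steps were tested on simulated data. No replicate pair was an exact copy, since chi-square over its degrees of freedom was 1.28 or more (at most 22.9) in each. H4K8ac input pairs lay at 1.28 to 1.99, and H4K5ac IP replicate 1 at 13.8 and 22.9 from the other IPs of that mark. These values do not tell separate cultures from repeat libraries. The labels do not say that replicates are separate cultures, so a p-value reflects how far these samples spread, perhaps for technical reasons. The main fits did not pair IP and input libraries, and pairing by number entered only through the replicate block. For H4K5ac all same-numbered libraries deviated together (correlation 0.278, 0.110 and 0.226). IP 2 with input 3 (0.145) and IP 3 with input 2 (0.152) did so too, above the 0.110 of IP 2 with input 2, so the pairing is weak.

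An overlap of 1 bp or more counted as shared between marks. Host genes came from transcript identifiers and a RefSeq gene table of WBcel235; 7 and 6 names turned into dates by a spreadsheet were read from their transcripts. Named genes were, per mark, the 10 highest and 10 lowest called intron genes, the 5 longest and 5 farthest regions, up to 4 members of each of 15 gene lists by lowest p, and genes whose folds differed between marks; the 7 DESeq2 calls, the hosts with most regions and values of a named gene in the other mark were added after their values were seen. Members and lists were chosen with earlier results of these data known. No genome sequence was used.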

Additional observations from a re-analysis of the deposited data

How the results depend on the processing

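With the replicate block, calls among intron genes were 785 for H4K5ac (724 without it), 762 for H4K8ac (775) and 0 for the difference between marks, and no count moved by over 1.5 times; for H4K8ac the same-numbered libraries did not deviate together (correlation -0.239, -0.101 and 0.066), and they share only a number. The low-count filter removed no gene. Total-count scaling gave 581 lower H4K5ac calls (2627 over all genes) and medians of -0.168 for H4K5ac, -0.102 for H4K8ac and -0.00649 for the difference. The fit of all 12 libraries over the genes in both tables gave a median of -0.0163 for H4K5ac, and 484 calls, 230 lower, with a median of -0.0143 for H4K8ac; fewer intron genes (906 against 1215) were in it. DESeq2 gave a median of -0.00679 for H4K8ac, and for the difference 7 calls, 4 and 3 by direction, and a median of 0.0378. Genes whose regions were all intron had medians of -0.00506 and -0.0220; the same restriction for the other classes was not run. Genes with an intron region within 2 kb of the start, an alternative added after seeing the data, gave 227 and 242 higher calls and medians of -0.0628 and -0.0427, from fewer genes. Genes named for an intron region in either table gave a median difference of 0.000957.

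Leaving out 1 library at a time gave 526 to 757 calls for H4K5ac (289 to 364 higher, 235 to 405 lower, medians -0.0453 to -0.0259) and 600 to 891 for H4K8ac (medians -0.0349 to -0.00128). For the difference it gave 0 to 30 (0 to 24 and 0 to 6 by direction, medians 0.0161 to 0.0517). In the upper part of each list, 675 and 699 intron regions had median lengths of 4599 and 5199 bp. Requiring an overlap of 50% of the shorter region left 83.6% and 81.7% of intron regions overlapped by the other mark. Counting only regions whose host is the named gene, also added after seeing the data, put 22.4% and 23.4% of intron regions on chromosome I and 12.4% and 9.96% on X. Of single-gene results under all alternatives, 1538 kept their side of the threshold, 49 lost it and 15 gained it, and none changed sign with a call. The cause of these changes was not tested. Chosen, ranked lists and counts per gene limit what can be said of the DNA within an intron.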
